A study of Mus musculus with 6 samples.

Results

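The IL-6 cytokine family was followed in RENCA cells, an established mouse renal adenocarcinoma line, with and without overexpression of the water channel AQP1. The members were 9 genes taken by name from a count table of 78298 genes. They comprised the cytokines Il6, Il11, Lif, Osm and Clcf1 and the receptor chains Il6st, Il6ra, Lifr and Osmr. The series holds 3 samples transduced with a lentivirus carrying mouse Aqp1 under the ubiquitin C promoter (oe-AQP1) and 3 samples transduced with the matching empty vector (oe-NC). Both groups carry the vector and its puromycin resistance, and both were selected for 14 days (2 μg/mL puromycin) without other treatment. Untransduced cells were not analysed here. The labels place all 6 samples in one batch, and whether each sample came from its own transduction is not given in the sources used here. The p-values therefore measure the spread between these samples, which may be technical.

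Cytokines of this family signal through gp130, the shared receptor chain encoded by Il6st. IL-6 and IL-11 first bind a private receptor and then gather gp130, LIF joins the LIF receptor to gp130, and mouse oncostatin M joins mainly the oncostatin M receptor to gp130. The receptor complex activates JAK kinases and the transcription factor STAT3, and SOCS3 feeds back on gp130. The family is known for acute-phase and inflammatory responses, renal carcinoma cells are a known source of IL-6, and Il6 is a classical target gene of NF-κB.

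The expected counts assigned to genes summed to 18385714 to 21920899 per sample. Aqp1, the delivered gene, stood at 7713, 8545 and 7838 counts in oe-AQP1 samples 1 to 3, against 41, 25 and 45 in oe-NC, so every library matched its label. Sample 1 of oe-NC stood apart from the other oe-NC samples, with a chi-square of 9.75 to 11.3 per gene against them, while the other pairs within a group gave 1.74 to 2.06. Without this sample, 6 members passed the test, 2 higher and 4 lower. The share of all genes that passed in that fit is not reported here. Of the renal epithelial markers, Pax8, Pax2, Cdh16, Krt8 and Krt18 were expressed and Epcam had no count. The leukocyte marker Ptprc had at most 3 counts in any sample. Of the macrophage markers Adgre1 had none, while Cd68, Lyz2, Cd14 and Csf1r were expressed. No T cell marker exceeded 3 counts in any sample.

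The promoters of Il6 and Lif are shown first because these were the cytokines that were higher in oe-AQP1 cells. Each sequence is the 250 bases before the RefSeq start site, read 5′ to 3′ on the coding strand, from the RefSeq promoter table (GRCm38.p6). An exact search placed them once each in GRCm39, on the forward strand at chr5:30217862-30218111 for Il6 and chr11:4207318-4207567 for Lif. Capitals mark the letters of the motifs found.
Il6 promoter: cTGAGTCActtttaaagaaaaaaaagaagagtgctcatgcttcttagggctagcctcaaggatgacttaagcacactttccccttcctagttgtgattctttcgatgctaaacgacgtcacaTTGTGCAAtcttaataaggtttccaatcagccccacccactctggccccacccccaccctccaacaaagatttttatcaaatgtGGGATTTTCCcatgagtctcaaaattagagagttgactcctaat
Lif promoter: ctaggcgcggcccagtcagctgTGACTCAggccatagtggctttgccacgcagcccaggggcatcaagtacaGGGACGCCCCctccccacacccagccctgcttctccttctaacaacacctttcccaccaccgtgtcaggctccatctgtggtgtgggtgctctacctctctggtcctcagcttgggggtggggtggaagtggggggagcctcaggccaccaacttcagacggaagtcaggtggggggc

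In the Il6 window the capitals are, from left to right, an AP-1 match from -249 to -243, a C/EBP match on the reverse strand from -128 to -121 and an NF-κB match, GGGATTTTCC, from -44 to -35, counted from the start site. In the Lif window they are an AP-1 match from -228 to -222 and an NF-κB match from -178 to -169. The search covered both strands for the NF-κB consensus by name, STAT (TTCNNNGAA), an IRF element by name, AP-1 (TGANTCA), C/EBP (TTGCNNAA) and the TATA box (TATAAA). No match overlapped another. Of 32841 promoter windows of the same length, 7.3% held the NF-κB letters, 6.8% AP-1, 9.6% C/EBP, 7.0% STAT, 3.0% the IRF element and 12.4% TATA. The table held 7 of the 9 members. In the windows of Il6st, Il6ra, Lifr and Osmr none of these letters occurred, and an AP-1 match from -98 to -92 occurred in a window of Il11. A match describes the letters only and is no measure of binding.

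AQP1 overexpression went with changes at both ends of the family. Il6 was nearly absent from oe-NC cells and present in every oe-AQP1 sample, Lif was higher by 26.3%, Clcf1 was lower and Lifr fell by more than any other receptor chain, while Il11 and Osm did not pass the test. In bulk samples such as these, a change in the number of cells that express a gene and a change in RNA per cell cannot be told apart. Groups were compared by limma-voom over 15522 genes, with log2FC above 0 where oe-AQP1 was the higher group, and FDR as the Benjamini-Hochberg adjusted p. At FDR under 0.05, 2 of the 9 members were higher (Il6 and Lif) and 4 were lower (Clcf1, Il6st, Il6ra and Lifr). Of all genes tested, 16% were higher and 16.6% lower by the same rule. With an absolute log2FC above 1 required as well, Il6 remained as higher and Lifr as lower, where 4.39% and 0.844% of all genes passed. All 9 members passed the low-count filter, Il6 through its counts in oe-AQP1 cells alone, so that it had to differ once it was tested. The median log2FC was -0.12 over the members and 0.002 over all genes. The CPM values (counts relative to library totals scaled by the TMM method) of the groups did not overlap for 7 of the 9 members, against 47.3% of all genes.

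**Figure D1:**
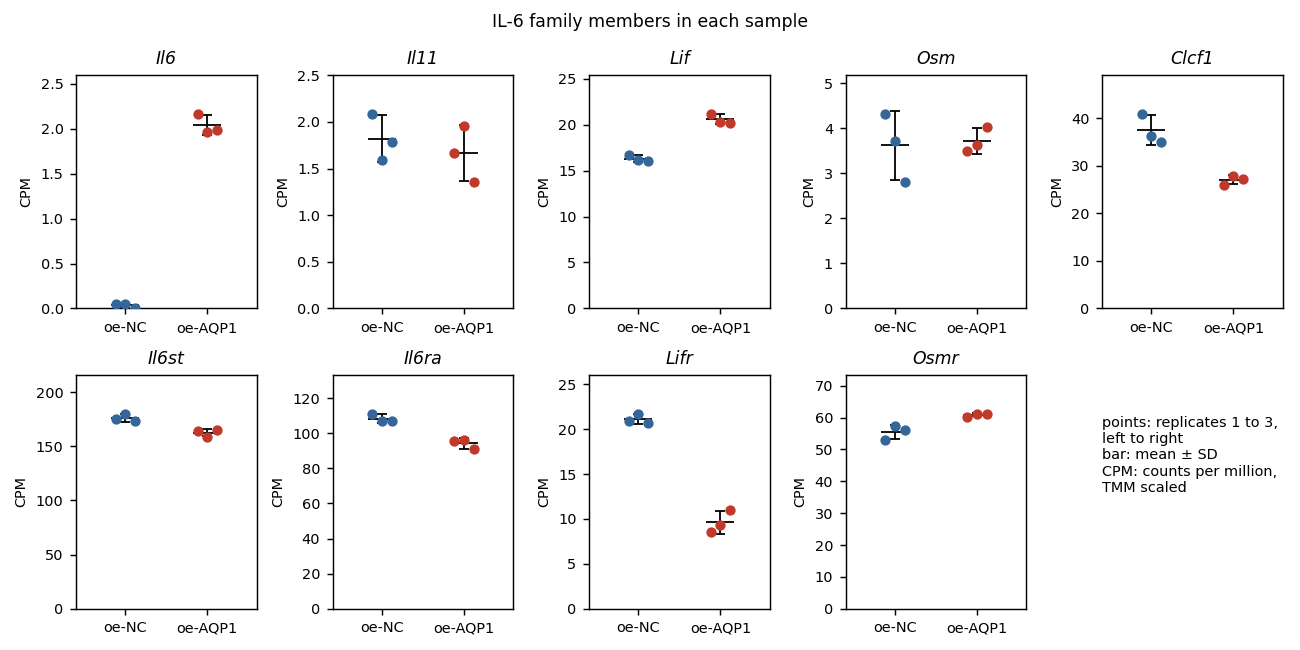
CPM of each member in the 6 samples, with 1 panel per gene, an axis from 0, points for samples and bars for mean ± SD (n = 3). The Il6 points of oe-AQP1 lie between 1.96 and 2.17 CPM and those of oe-NC at or under 0.0547 CPM, and the Lifr points separate in the opposite direction.

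Il6 (ENSMUSG00000025746, chromosome 5, 30218112 to 30224979 on GRCm39) encodes interleukin-6, the founding inflammatory cytokine of the family. The oe-AQP1 samples held 43, 43 and 41 Il6 counts, against 1, 1 and 0 in oe-NC. All oe-AQP1 samples were alike and far above every oe-NC sample. Pooled over the groups and corrected for library size, 127 counts against 2 gave a ratio of 60.3, with a 95% exact interval from 16.4 to 504 that covers counting error only. Limma-voom fitted a log2FC of 5.29 ± 0.45 (SE) with FDR = 1.21e-05, which placed Il6 at rank 15 from the top of all genes tested. The limit set by the low-count filter, given above, applies to this FDR and rank. With so few oe-NC counts the fitted size depended on the method, at 5.68 with edgeR's quasi-likelihood test, 5.91 with DESeq2 and 4.70 without oe-NC sample 3, the sample with no Il6 count. Even in oe-AQP1 cells Il6 stayed a low transcript, at 2.04 ± 0.117 CPM (SD, n = 3).

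Lif (ENSMUSG00000034394, chromosome 11, 4207557 to 4222514) encodes leukemia inhibitory factor, the ligand of the LIF receptor. Its counts were 420, 446 and 416 in oe-AQP1 samples and 327, 295 and 342 in oe-NC samples. Every oe-AQP1 sample lay above every oe-NC sample. The level was 20.6 ± 0.569 CPM against 16.3 ± 0.331 CPM (SD, n = 3 each), a log2FC of 0.34 ± 0.06 (SE, FDR = 0.00259), with a 95% interval from 1.15-fold to 1.39-fold.

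Clcf1 (ENSMUSG00000040663, chromosome 19, 4264292 to 4273546) encodes cardiotrophin-like cytokine factor 1, which binds the ciliary neurotrophic factor receptor. It had 514, 613 and 560 counts in oe-AQP1 samples and 805, 664 and 746 in oe-NC samples. The groups did not overlap, and sample 1 was the highest of oe-NC. Clcf1 fell from 37.4 ± 3.16 CPM to 27.0 ± 0.957 CPM (SD, n = 3 each), a log2FC of -0.46 ± 0.07 (SE, FDR = 6.78e-04), and without oe-NC sample 1 the log2FC was -0.40. Its exons share 311 bases with Gm45928 on the same strand, which had at most 2.16 expected counts in any sample.

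Il11 and Osm did not pass the test. Il11 (chromosome 7, 4775372 to 4785858), a cytokine of fibrosis and epithelial injury, had 33, 43 and 28 counts in oe-AQP1 samples and 41, 29 and 38 in oe-NC samples. Its log2FC was -0.13 with a 95% interval from -0.61 to 0.34 (FDR = 0.669). Osm (chromosome 11, 4186420 to 4191026) encodes oncostatin M, which is made mostly by myeloid cells. It had 69, 80 and 83 counts in oe-AQP1 samples and 85, 68 and 60 in oe-NC samples, a log2FC of 0.07 with an interval from -0.32 to 0.46 (FDR = 0.797). The groups overlapped for both genes. At these counts a change of up to 1.37-fold in Osm was within the interval.

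Among the receptor chains, Lifr (ENSMUSG00000054263, chromosome 15, 7120095 to 7226970), which encodes the receptor of LIF, changed most. It had 169, 204 and 226 counts in oe-AQP1 samples and 411, 396 and 441 in oe-NC samples. All oe-AQP1 samples lay below all oe-NC samples, by a margin wider than the spread within either group. Lifr fell from 21.1 ± 0.508 CPM to 9.61 ± 1.25 CPM (SD, n = 3 each), a log2FC of -1.14 ± 0.09 (SE, FDR = 8.04e-06), or 54.6% lower. Only 0.722% of the genes tested had a lower log2FC. The antisense lncRNA Gm62219 shares 1530 exon bases with Lifr and had no count in any sample.

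Osmr (ENSMUSG00000022146, chromosome 15, 6843053 to 6904450) encodes the signalling chain for oncostatin M. It had 1193, 1345 and 1254 counts in oe-AQP1 samples and 1038, 1048 and 1197 in oe-NC samples, or 60.8 ± 0.437 CPM against 55.5 ± 2.31 CPM (SD, n = 3 each). The CPM values of the groups did not overlap, but the log2FC of 0.13 (95% interval 0.03 to 0.24) missed the threshold (FDR = 0.0528). It passed with sample quality weights (FDR = 0.0428) and with scaling by library size only (FDR = 0.0386).

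Il6ra (ENSMUSG00000027947, chromosome 3, 89771366 to 89820719) encodes the private receptor of IL-6, and its counts were 1891, 2117 and 1866 in oe-AQP1 samples and 2174, 1951 and 2275 in oe-NC samples. Relative to depth every oe-AQP1 sample was lower, at 94.2 ± 3.02 CPM against 108 ± 2.32 CPM (SD, n = 3 each), a log2FC of -0.20 ± 0.04 (SE, FDR = 0.00532). Its expected counts were not whole in any sample, and its exons share 458 bases with the antisense lncRNA Gm42809, which had at most 19.04 expected counts.

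Il6st (ENSMUSG00000021756, chromosome 13, 112600604 to 112646620), the gene of gp130, was the most highly counted member, with 3238, 3494 and 3400 counts in oe-AQP1 samples and 3442, 3295 and 3696 in oe-NC samples. The difference was small, 163 ± 3.37 CPM against 176 ± 3.55 CPM (SD, n = 3 each), with a log2FC of -0.12 ± 0.04 (SE, FDR = 0.0368). This call was lost with DESeq2 (FDR = 0.0901), with the replicate block (FDR = 0.0732), with scaling by library size only (FDR = 0.0577) and on leaving out any sample other than oe-NC sample 1, with FDR up to 0.164. Its exons share 181 bases with the antisense lncRNA 6720470G18Rik, which had at most 17 counts.

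**Figure D2:**
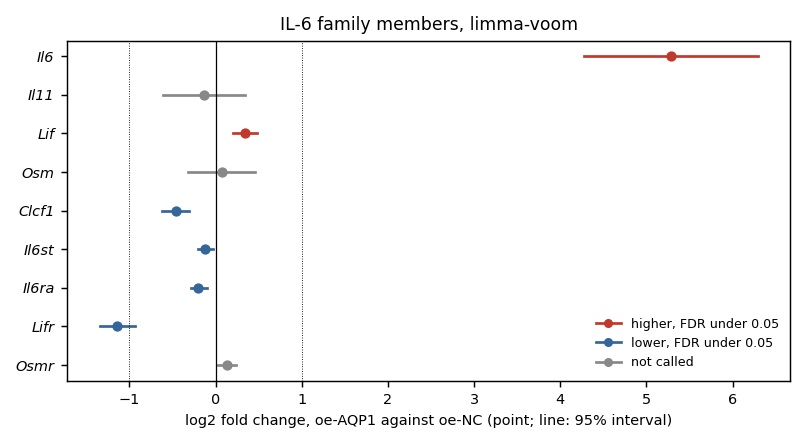
Log2FC of each member by limma-voom (points) with its 95% interval (lines), red for higher, blue for lower and grey for not called, and dotted lines at -1 and 1. Il6 at 5.29 and Lifr at -1.14 lie beyond the dotted lines, and the other 7 members lie between them.

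The Lifr and Osmr genes and the Lif and Osm genes are neighbours, and their values are set side by side here, without a test of the difference between neighbours. Lifr and Osmr lie on opposite strands of chromosome 15 with a gap of 215.6 kb that holds no protein-coding gene. Their log2FC values were -1.14 and 0.13, and Rictor, on the other side of Osmr at 13.2 kb, had a log2FC of -0.01 (FDR = 0.907). Lif and Osm lie 16.5 kb apart on the same strand of chromosome 11, with log2FC values of 0.34 and 0.07. Castor1, 35.1 kb before Lif, was lower (log2FC = -0.44, FDR = 0.00475), and the lncRNA Gm11958, 12.9 kb beyond Lif, had a log2FC of 0.30 (FDR = 0.234).

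To compare levels between genes, expected counts were divided by exon length and scaled to TPM (length-normalized transcript abundance, with the same total in every sample). In oe-NC cells the order was Il6ra, Il6st, Clcf1, Osmr, Lif, Osm, Lifr, Il11 and Il6, from 47.3 ± 2.28 TPM to 0.0568 ± 0.0492 TPM (SD, n = 3). The ranges of Il6st and Clcf1 overlapped, as did those of Osm and Lifr. In oe-AQP1 cells the first 6 places were the same, followed by Il6 at 3.38 ± 0.179 TPM, Il11 at 3.22 ± 0.573 TPM and Lifr at 2.80 ± 0.377 TPM (SD, n = 3). The ranges of neighbours among these last 3 overlapped, as did those of Il6ra and Il6st. Lifr had the lowest mean of these, although in oe-AQP1 sample 3 Il11 lay below it. On the TPM scale the Il6st ranges of the groups overlapped, at 41.3 to 43.0 TPM in oe-AQP1 and 42.5 to 45.1 TPM in oe-NC samples.

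**Figure D3:**
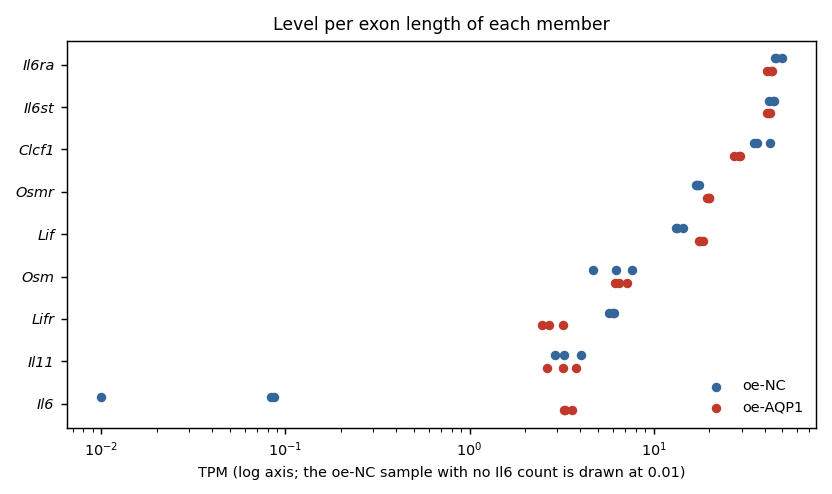
Level of each member per exon length, as TPM on a log axis, with 3 points per group and the genes ordered by their oe-NC mean. The oe-NC sample with no Il6 count is drawn at 0.01. Il6 moves from the bottom of the order to the level of Il11, and Lifr moves from the level of Osm to below it.

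Ratios within a sample, chosen after the values were seen, set the RNA levels of members side by side. They are ratios of RNA and not of receptor protein. The ratio of Lifr to Osmr in TPM was 0.127, 0.136 and 0.162 in oe-AQP1 samples and 0.356, 0.340 and 0.331 in oe-NC samples. It separated the groups without overlap. The ratio of Lifr to Il6st was 0.0664 ± 0.00806 in oe-AQP1 and 0.135 ± 0.000535 in oe-NC cells (SD, n = 3 each). The ratio of Osmr to Il6st was 0.469 ± 0.0118 in oe-AQP1 and 0.394 ± 0.0145 in oe-NC cells (SD, n = 3 each), also without overlap. The ratio of the ligand Lif to its receptor Lifr was 6.50 ± 0.966 in oe-AQP1 and 2.31 ± 0.0764 in oe-NC cells (SD, n = 3 each). The groups did not overlap in any of these 4 ratios. An exact two-sided permutation test gave p = 0.1 for each, the smallest that 3 samples against 3 allow, so that no ratio could pass 0.05. The ratio of Il6ra to Il6st overlapped, at 0.962 to 1.06 with AQP1 and 1.04 to 1.11 without (exact permutation p = 0.2).

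**Figure D4:**
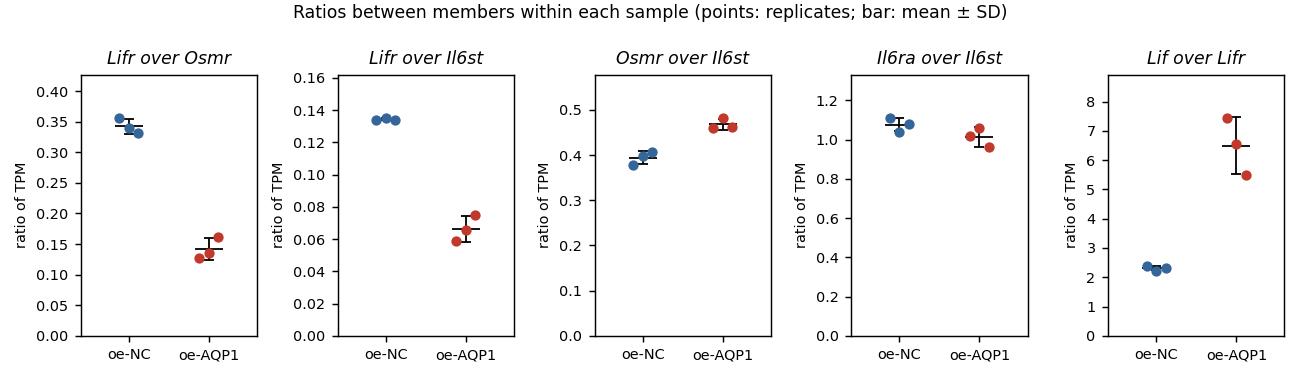
Ratios of TPM between members within each sample, with 1 panel per ratio, an axis from 0, points for samples and bars for mean ± SD (n = 3). The Lifr ratios are lower and the Lif to Lifr ratio is higher in every oe-AQP1 sample, while the points of the Il6ra to Il6st ratio overlap.

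The rest of the family was sparse in these cells. Of 12 further ligands, partners and receptors, 4 passed the low-count filter. Limma-voom called 0 of these 4 at FDR under 0.05, where 32.5% of all genes tested were called in either direction. In the same fit 1 was lower at an unadjusted p under 0.05, and edgeR and DESeq2 called 0. Without oe-NC sample 3, 1 gene was called lower. Ctf1, which encodes cardiotrophin-1, ranged from 69 to 84 counts with AQP1 and from 86 to 108 without (log2FC = -0.36, FDR = 0.0798). Cntf, the ciliary neurotrophic factor gene, had a log2FC of 0.19 (FDR = 0.449). Il11ra1, the private receptor of IL-11, ranged from 274 to 328 counts with AQP1 and from 279 to 337 without (log2FC = -0.15, FDR = 0.271). Il27ra, a receptor chain for interleukin-27, had 6 to 25 counts (log2FC = -0.25, FDR = 0.722). Cntfr, the receptor chain of CLCF1, and Il11ra2 had no count in any sample, and Ctf2 had 1 to 6 counts. Il27, Ebi3, Il31 and Il31ra had at most 2 counts. Expression below the reach of these libraries was not detectable in genes without a count.

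Downstream of the receptors, 18 genes of gp130 signalling were tested, of which 4 were higher and 3 lower, with a median log2FC of 0.04. The share called in either direction was 38.9%, near the 32.5% of all genes tested, of which 16% were higher and 16.6% lower. Among the higher genes were Socs1 (log2FC = 1.75, FDR = 5.10e-05) and Socs2 (log2FC = 0.26, FDR = 0.00233), which encode feedback inhibitors, and Ptpn2 (log2FC = 0.22, FDR = 0.0197), a phosphatase gene. The lower genes were Adam17 (log2FC = -0.30, FDR = 0.00125) and Adam10 (log2FC = -0.25, FDR = 0.00343), whose proteases shed the IL-6 receptor from the cell surface, and Jak1 (log2FC = -0.11, FDR = 0.0457). Stat3, the main factor of the pathway, had 4495, 4936 and 4524 counts in oe-AQP1 and 4441, 4054 and 4736 in oe-NC samples, with a 95% interval of its log2FC from -0.07 to 0.08. Socs3, the feedback inhibitor that binds gp130, had a log2FC of -0.19 with an interval from -0.41 to 0.03 (FDR = 0.181).

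Of 22 genes known as STAT3 targets, 21 were tested, with 5 higher, 3 lower and a median log2FC of 0.00. The share called in either direction was 38.1%, near the 32.5% of all genes tested, of which 16% were higher and 16.6% lower. Saa3, an acute-phase gene, rose most, with 28, 30 and 32 counts in oe-AQP1 and 2, 5 and 9 in oe-NC samples (log2FC = 2.50, FDR = 0.00103). Like Il6, it passed the low-count filter through its oe-AQP1 counts alone, so that it had to differ once it was tested. It is among the 5 higher targets. Icam1 (log2FC = 1.02, FDR = 1.33e-06), Fos (log2FC = 0.54, FDR = 3.10e-04) and Junb (log2FC = 0.44, FDR = 0.00475), an adhesion molecule gene and genes of AP-1 subunits, were also higher. Lcn2, which encodes lipocalin-2 (log2FC = -0.73, FDR = 4.74e-06), the survival gene Bcl2l1 (log2FC = -0.44, FDR = 1.06e-04) and the angiogenic factor gene Vegfa (log2FC = -0.30, FDR = 0.0130) were lower. Hp was not tested, with at most 4 counts. The list holds Osmr, a member, and Stat3 and Socs3, which also count above. Without oe-NC sample 1, 7 targets were higher and 4 lower, in a fit whose share of all genes called is not reported here.

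Upstream of Il6, 21 genes that regulate its transcription or the stability of its mRNA were tested. Limma-voom called 11 higher and 0 lower (52.4%), with a median log2FC of 0.26, where 16% of all genes were higher and 16.6% lower. At an unadjusted p under 0.05, 13 were higher and 2 lower, and edgeR called 11 higher and 1 lower, DESeq2 11 higher and 0 lower. The largest increases were those of Nfkbia (log2FC = 1.13, FDR = 3.28e-07) and Tnfaip3 (log2FC = 0.93, FDR = 1.61e-06), which encode inhibitors of NF-κB, Zfp36 (log2FC = 0.66, FDR = 4.19e-04), whose protein promotes decay of Il6 mRNA, and Relb (log2FC = 0.63, FDR = 6.64e-05), an NF-κB subunit gene. Arid5a, whose protein stabilises Il6 mRNA, was also higher (log2FC = 0.40, FDR = 0.0151). Cebpb, whose protein was first named NF-IL6 after its binding to the IL-6 promoter, had 5066, 5517 and 5209 counts in oe-AQP1 and 8711, 4781 and 5044 in oe-NC samples. The high value was that of oe-NC sample 1, and the log2FC of -0.25 did not pass (FDR = 0.332). The list shares Junb, Cebpb and Cebpd with the STAT3 targets.

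**Figure D5:**
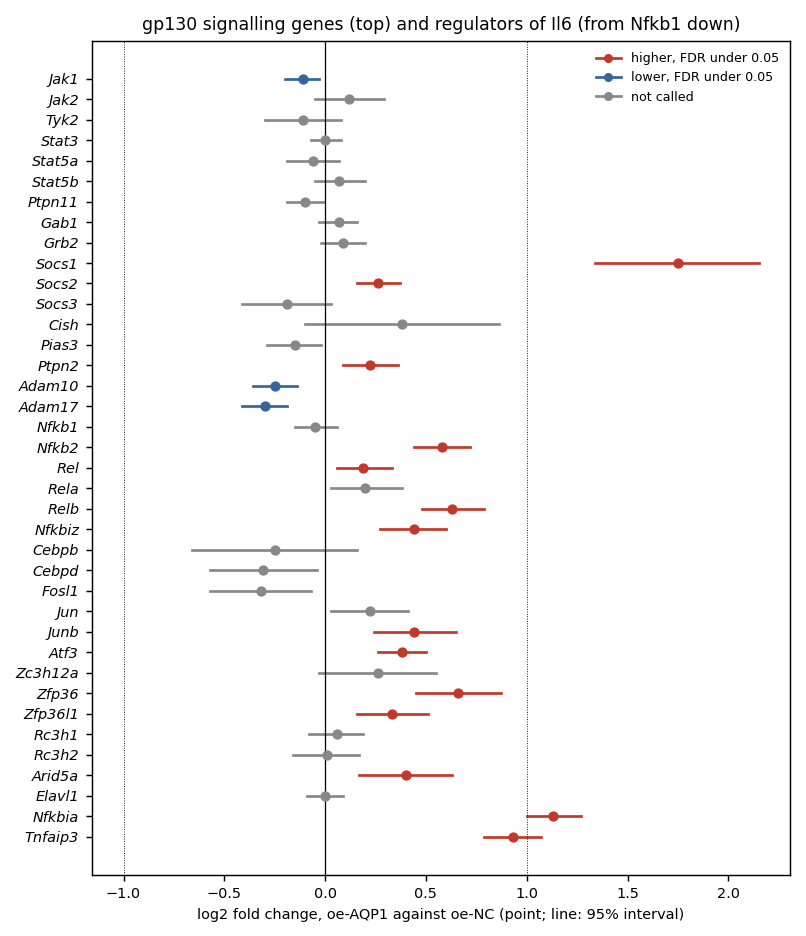
Log2FC (points) with 95% intervals (lines) for genes of gp130 signalling, at the top, and 21 regulators of Il6, below, coloured as higher (red), lower (blue) or not called (grey), with dotted lines at -1 and 1. The points of Socs1 and Nfkbia lie beyond 1, and the Stat3 interval spans 0.

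For each called member, the genes with the most similar profile were sought by Pearson's r of log2(CPM + 0.5) over the 6 samples, among genes with a mean of at least 100 counts. For Il6 they were Mpeg1 (r = 0.9997), Irf1 (r = 0.9995) and Sp140l2 (r = 0.9995), with log2FC values of 4.49, 1.43 and 1.92. For Lif they were Trp53bp1, Gm35028 and Cd209c (r from 0.9964 to 0.9978). For Lifr they were Zmat3, Usp24 and Anapc1 (r from 0.9977 to 0.9982), for Clcf1 they were Cgnl1, Fam120a and Ndufv1 (r from 0.9989 to 0.9991), for Il6ra they were Tprg1l, Emc10 and Mesd (r from 0.9981 to 0.9993), and for Il6st they were Pla2g7, Wdr1 and Ddx46 (r from 0.9935 to 0.9980). All of these points share the same 6 libraries in 2 groups, and 966 of 10805 genes exceeded an r of 0.95 with Il6, so the values describe the profiles and name no shared control.

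Markers of other cell types were read beside these results, since Il6 is also a product of myeloid cells and fibroblasts, and Osm of myeloid cells. Of 7 macrophage markers, Cd68, Csf1r, Lyz2 and Cd14 passed the filter, and the summed level of the list was 59.1 to 62.2 CPM in oe-AQP1 and 69.3 to 71.2 CPM in oe-NC samples. Csf1r, the receptor of colony-stimulating factor 1, was lower (log2FC = -1.51, FDR = 1.31e-05), as was the lysozyme gene Lyz2 (log2FC = -0.52, FDR = 2.73e-04). The lysosomal marker Cd68 was at 33.8 ± 1.48 CPM in oe-AQP1 cells, above the 30.6 ± 0.909 CPM in oe-NC cells without overlap (SD, n = 3 each), but did not pass (FDR = 0.0764). Mrc1 had 5, 2 and 2 counts with AQP1 and none without, and Ptprc, Itgam and Adgre1 were at or near 0. The 6 fibroblast markers summed to 56.6 to 58.8 CPM and 51.6 to 65.7 CPM, with Pdgfra, Dcn and Lum at most at 1 count. Of the others Pdgfrb, a receptor of platelet-derived growth factor, was higher (log2FC = 0.34, FDR = 0.00284) and the collagen gene Col1a1 was lower (log2FC = -0.73, FDR = 0.00238). The 4 endothelial markers summed to 1.01 to 1.73 CPM and 0.93 to 1.45 CPM. The renal epithelial markers summed to 827 to 856 CPM in oe-AQP1 and 999 to 1110 CPM in oe-NC samples, with Krt8, Krt18 and Cdh16 lower, and the part of these marker lists in the results was not tested.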

How the data were processed

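RNA from 3 oe-AQP1 and 3 oe-NC samples of RENCA cells was sequenced. The strand setting of the counting is not given in the sources used here. The authors deposited expected counts per gene, not scaled between samples and partly fractional, with 2 columns of group means that were not used. The submitters' processing notes name fastp, HISAT2 and featureCounts (Subread) with GRCm38 (mm10), whereas the paper's methods name GRCm39. Of the 78298 gene identifiers, 99.83% were in GENCODE M39 (GRCm39), which gave positions and exon lengths. A wrong annotation or shared reads would move TPM and the counts of overlapping genes.

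Expected counts were rounded and tested by limma-voom with TMM normalization, after filterByExpr (limma 3.58.1, edgeR 4.0.16, R 4.3.3). The paper's methods also state limma-voom with TMM, but do not name this filter. They require an absolute log2FC above 1 beside FDR under 0.05. The paper also removed interferon-stimulated and viral defense genes, which was not done here. Alternatives were edgeR, DESeq2 1.42.0, sample quality weights, 3 scalings, 2 filters, unrounded counts, a replicate block and leaving out each sample. The fitting code was also run on simulated data, with results that are not reported here and do not bear on the calls above. Totals of 18385714 to 21920899 counts per sample set the precision, and intervals cover counting error or sample spread only. Every member was named, as were the cytokines and receptors of the family, up to 4 called genes in each direction from each other list, and the genes with the most similar profiles. Stat3, Socs3, Arid5a, Cebpb, the markers named, the overlapping and neighbouring genes and the ratios were chosen after their values were seen. The members and lists were chosen with earlier results of these data known. Some listed genes are not reported here by name or in the plots.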

Additional observations from a re-analysis of the deposited data

How the results depend on the processing

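Under 16 alternatives for each member, Lif, Clcf1, Il6ra and Lifr stayed past FDR 0.05 in all of them. Il6 did so too, but wherever a low-count filter was used it had to differ, having passed it through oe-AQP1 counts alone. Il11 and Osm passed in none, and the Osm log2FC ranged from -0.12 to 0.21. The log2FC ranged from 4.70 to 5.91 for Il6 and from -1.24 to -1.06 for Lifr. The Il6st log2FC missed the threshold at -0.12 with DESeq2, -0.10 with library size only and -0.12 with the replicate block, and ranged from -0.13 to -0.10 with a sample left out. That of Osmr passed at 0.11 with sample quality weights and 0.15 with library size only. The cause was not tested. The number of members called was 6, and 2 with the fold threshold as well, which removes small changes by construction. With a sample left out it was 5 or 6, and the other IL-6 family genes called were 0 or 1. The shares of all genes called under the alternatives are not reported here. In the fit with the replicate block 5 members were called, and apart from Il6st no member's call changed. The labels give both groups the numbers 1 to 3. Deviations of same-numbered samples correlated at -0.041, 0.098 and -0.042, and those of differently numbered samples at -0.084 to 0.089. With 3 samples per group these values cannot decide whether the numbers pair the samples. The block raised the called regulators of Il6 from 11 to 15, of which 13 were higher and 2 lower. Depth limits Il6 in oe-NC cells, where 2 counts in all were seen, and Il11 and Osm, whose intervals are wide.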
